A study of Homo sapiens with 16 samples.

Results

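The human mitochondrial genome carries 37 genes, and all of them were found among the 64252 gene identifiers of the count tables by the MT- prefix of their symbols: 13 protein-coding genes, 2 rRNA genes and 22 tRNA genes. They were followed in 16 RNA sequencing libraries of Jurkat and 6T-CEM, both established lines of T-cell acute lymphoblastic leukaemia. Each line carried either sh-NC, the control short hairpin RNA, or sh-SH2D1A, directed against SH2D1A, which encodes the adaptor protein SAP of SLAM family receptors. Jurkat was sampled at day 8 and day 10 and 6T-CEM at day 5 and day 10, with 2 libraries for each of the 8 groups of line, day and hairpin. The labels name 1 hairpin against SH2D1A, give no event from which the days are counted, and leave unsaid whether paired libraries came from separate cultures. The p-values therefore measure the spread between these libraries, which may be technical.

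Mitochondrial DNA is a small circle that is transcribed almost end to end from both of its strands, called heavy and light. The long precursors are cut at the tRNAs, which stand between most of the other genes, by RNase P and ELAC2. The freed mRNAs, rRNAs and tRNAs then differ in stability. The mRNAs encode core subunits of complexes I, III and IV of the respiratory chain and of the ATP synthase, and the rRNAs and tRNAs serve only the ribosomes inside the organelle.

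The layout matters for reading the counts, since many of these genes touch or overlap. Of the 13 protein-coding genes, 12 lie on the strand that GENCODE 29 (GRCh38) gives as plus, as do both rRNAs and 14 tRNAs, while MT-ND6 and 8 tRNAs lie on the minus strand. MT-ATP8 and MT-ATP6 share 46 bases and are read from a common mRNA. MT-ND4L and MT-ND4 share 7 bases and are likewise read from a common mRNA. The shared bases are in capitals, with 12 flanking bases on either side, at chrM:8515-8584 and chrM:10748-10778 on the plus strand.
MT-ATP8 and MT-ATP6: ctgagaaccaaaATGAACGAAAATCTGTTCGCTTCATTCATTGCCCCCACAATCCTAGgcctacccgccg
MT-ND4L and MT-ND4: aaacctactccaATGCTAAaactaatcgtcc

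Several mRNAs end before their stop codon is complete, and the poly(A) tail supplies the missing bases. This was so for 6 of the 13 coding sequences, of which 5 end in T and 1, MT-ND1, ends in TA. Their last 24 bases are shown because most of the mRNAs that were higher with sh-SH2D1A are of this kind. Capitals mark the remnant of the stop codon.
MT-ND1: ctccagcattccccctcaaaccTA
MT-ND2: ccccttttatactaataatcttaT
MT-CO3: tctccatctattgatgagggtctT
MT-ND3: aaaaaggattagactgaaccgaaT
MT-ND4: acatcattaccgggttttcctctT
MT-CYB: aaaacaaaatactcaaatgggccT

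A run of 5 tRNA genes lies between MT-ND2 and MT-CO1, with MT-TW on the plus strand and MT-TA, MT-TN, MT-TC and MT-TY on the minus strand. They carry tryptophan, alanine, asparagine, cysteine and tyrosine. This run is shown because its members were lower together with sh-SH2D1A. They lie at chrM:5512-5579, chrM:5587-5655, chrM:5657-5729, chrM:5761-5826 and chrM:5826-5891, and each is printed along its own strand with no base singled out.
MT-TW: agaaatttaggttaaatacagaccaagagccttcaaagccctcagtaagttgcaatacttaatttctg
MT-TA: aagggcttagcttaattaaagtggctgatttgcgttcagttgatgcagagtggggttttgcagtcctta
MT-TN: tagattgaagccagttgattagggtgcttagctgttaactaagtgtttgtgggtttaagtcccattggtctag
MT-TC: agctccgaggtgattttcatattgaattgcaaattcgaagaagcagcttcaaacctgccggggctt
MT-TY: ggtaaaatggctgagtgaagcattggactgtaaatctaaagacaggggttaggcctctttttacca

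A second run, MT-TH, MT-TS2 and MT-TL2, lies between MT-ND4 and MT-ND5 on the plus strand with no base between neighbours. These tRNAs for histidine, serine and leucine are shown because all 3 rose widely between days in 6T-CEM. Their positions are chrM:12138-12206, chrM:12207-12265 and chrM:12266-12336.
MT-TH: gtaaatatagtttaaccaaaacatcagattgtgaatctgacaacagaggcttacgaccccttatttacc
MT-TS2: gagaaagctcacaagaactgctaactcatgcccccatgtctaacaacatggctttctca
MT-TL2: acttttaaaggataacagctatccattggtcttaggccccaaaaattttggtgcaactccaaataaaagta

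The libraries held between 27217899 and 33788024 counts. SH2D1A ranged from 155 to 203 CPM (counts divided by the library's total and put on a common scale) in the sh-NC libraries and from 49.1 to 80.9 CPM in the sh-SH2D1A libraries, with no overlap. The 10 T cell markers summed to 1969 to 2597 CPM in Jurkat and to 1142 to 1372 CPM in 6T-CEM. Markers of B cells summed to 44.6 to 74.8 CPM in Jurkat and to 16.4 to 45.8 CPM in 6T-CEM. Markers of myeloid cells (1.02 to 2.86 CPM), epithelial and packaging cells (1.12 to 5.74) and erythroid cells (0 to 4.22) summed to less, and in each of the 4 lists 3 of the 5 genes stayed under 1 CPM in every library. Over the mean of the 4 sh-SH2D1A changes, 7 of the 10 T cell markers were lower and 2 higher, beside 12.2% and 10.7% of all genes. The erythroid genes HBA1 and HBA2 were higher in that mean, but reached at most 0.357 CPM in Jurkat and 2.72 CPM in 6T-CEM. No erythroid gene passed the filter on low counts in either Jurkat comparison. Of the 3 B cell markers tested 1 was lower in that mean. In 6T-CEM day 10, where 7.42% of all genes were lower, 2 of them were lower, with a median of -0.65. The part of these markers in the mitochondrial results was not tested. With sh-SH2D1A at day 5 of 6T-CEM the libraries differed most from each other (chi-square per degree of freedom 24.6 over genes, against 5.01 to 10.2 in the other groups). All differ by more than sampling noise, so all were kept as separate libraries.

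The most abundant mitochondrial transcripts per kilobase were those of complex IV and MT-ATP6. Levels here are CPM scaled by the trimmed mean of M-values (TMM) over all 16 libraries, divided by gene length. Averaged over all 16 libraries, MT-CO1 stood at 8759 CPM per kilobase, MT-CO2 at 8272, MT-ATP6 at 8130 and MT-CO3 at 6498. These encode the 3 core subunits of cytochrome c oxidase and subunit a of the ATP synthase, part of its proton channel. The complex I genes were lower and more uneven, from 4976 CPM per kilobase for MT-ND4 and 2876 for MT-ND4L down to 1368 for MT-ND3. MT-ND2 stood at 2149, MT-ND1 at 1903, MT-ND6 at 1835 and MT-ND5 at 1627 CPM per kilobase. MT-CYB, the only mitochondrially encoded subunit of complex III, stood at 3260 CPM per kilobase and MT-ATP8, a small membrane subunit of the ATP synthase, at 3731. MT-RNR2, the 16S rRNA of the large ribosomal subunit, stood at 3605 CPM per kilobase and MT-RNR1, the 12S rRNA of the small subunit, at 1275. The tRNA genes ranged from 18.8 CPM per kilobase for MT-TW to 1475 for MT-TS1. How RNA was selected for these libraries is not given in the sources used here, so rRNA and tRNA counts stand for the molecules that entered the libraries and not for their amounts in the cell.

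**Figure D1:**
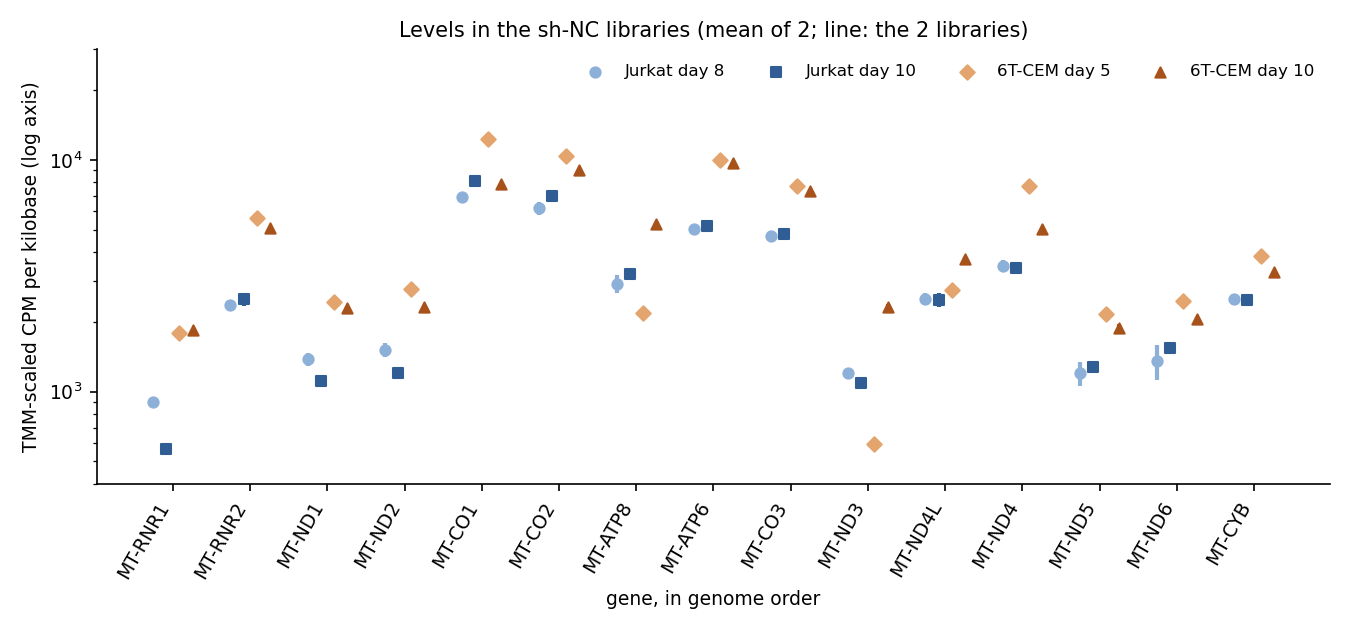
TMM-scaled CPM per kilobase (log axis) of the 2 rRNA and 13 protein-coding genes in the sh-NC libraries, in genome order. Points are means of 2 libraries and vertical lines join the 2 libraries. MT-CO1, MT-CO2, MT-ATP6 and MT-CO3 stand highest, and MT-ND3 has the widest spread between groups, from 594 in 6T-CEM day 5 to 2320 in 6T-CEM day 10.

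The mitochondrial genes took a larger share of all gene counts in 6T-CEM than in Jurkat. With sh-NC the share was 3.95 and 4.36% in Jurkat day 8, 4.15 and 4.45% in Jurkat day 10, 7.44 and 7.63% in 6T-CEM day 5 and 6.48 and 6.55% in 6T-CEM day 10. With sh-SH2D1A it was 4.35 and 4.41%, 4.45 and 4.47%, 7.98 and 9.19%, and 6.50 and 6.13% in the same order. Every 6T-CEM library stood above every Jurkat library. The means were 7.24 and 4.32%, a difference of -2.92 percentage points for Jurkat minus 6T-CEM (exact permutation test within hairpins, two-sided, p = 0.000408, the smallest it can give). Day 10 is the only day that both lines have, so line and day are partly confounded, but the lines did not overlap at day 10 either. Counting error is small beside these differences, since the Wilson 95% interval of the library at 9.19% ran from 9.18 to 9.20%. Such intervals cover counting error only. In bulk RNA, fewer mitochondrial genomes per cell, less RNA per genome and more nuclear RNA cannot be told apart, as fewer cells of a type and less RNA per cell cannot.

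The whole mitochondrial share did not separate sh-SH2D1A from sh-NC. The differences, sh-SH2D1A minus sh-NC, were 0.222 percentage points in Jurkat day 8, 0.158 in Jurkat day 10, 1.05 in 6T-CEM day 5 and -0.199 in 6T-CEM day 10. Only in 6T-CEM day 5 did both sh-SH2D1A libraries stand above both sh-NC libraries, and there the sh-SH2D1A libraries were far apart (8.58 ± 0.85%, SD, n = 2, against 7.53 ± 0.14% with sh-NC). An exact permutation test of 2 libraries against 2 cannot give a p below 0.333. Over the 4 line and day combinations the mean difference was 0.308 points (exact permutation test within them, two-sided, p = 0.137, 1296 arrangements). Without the second library of 6T-CEM day 10 sh-SH2D1A it was 0.354 points with p = 0.0432 by the same exact test. In 6T-CEM the change from day 5 to day 10 was -1.64 points, with p = 0.0556, the smallest this exact permutation test can give, and in Jurkat the change from day 8 to day 10 was 0.116 points (exact permutation test, p = 0.389).

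**Figure D2:**
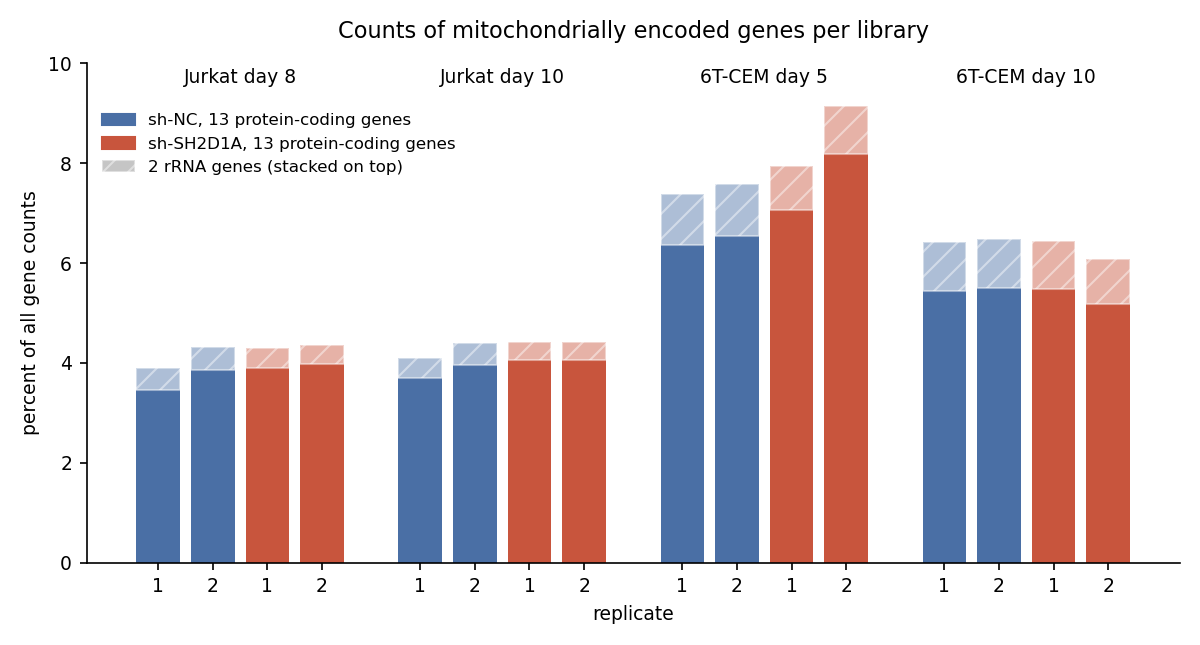
Percent of all gene counts taken by the 13 protein-coding genes (solid) and the 2 rRNA genes (hatched, stacked on top) in each of the 16 libraries; tRNA genes, at 0.0400 to 0.0599%, are too small to draw. All 6T-CEM libraries stand above all Jurkat libraries, and the rRNA part is smaller in both sh-SH2D1A libraries than in both sh-NC libraries of every line and day.

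Within the mitochondrial counts the rRNA part was smaller with sh-SH2D1A in every line and day, and as a share of all counts the protein-coding genes were larger in 3 of the 4. The rRNA genes made up 11.1 and 10.4% of mitochondrial counts in the Jurkat day 8 controls and 9.12 and 8.53% under sh-SH2D1A. In Jurkat day 10 they made up 9.81 and 10.3% with sh-NC against 7.94 and 8.10%. In 6T-CEM day 5 they made up 13.7 and 13.7% with sh-NC against 10.9 and 10.5%. In 6T-CEM day 10 they made up 15.3 and 15.1% with sh-NC against 14.8 and 14.6%. The hairpin arms did not overlap in any of the 4 combinations, and the smallest mean difference, -0.535 percentage points, was in 6T-CEM day 10. The mean difference was -1.87 percentage points (exact permutation test within line and day, two-sided, p = 0.00154, the smallest it can give). Its Benjamini-Hochberg adjusted p was 0.00231 over a family of 6 share and ratio values. The rRNA part of the mitochondrial counts was not among the planned values. As shares of all gene counts, the rRNA genes differed by -0.0780 points (exact permutation p = 0.00154, adjusted 0.00231, lower in 4 of 4) and the tRNA genes by -0.00407 points (exact permutation p = 0.00154, adjusted 0.00231, lower in 4 of 4). The protein-coding genes differed by 0.390 points (exact permutation p = 0.0448, adjusted p = 0.0537), with both libraries above in 3 of 4 and a difference of -0.130 points in 6T-CEM day 10.

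Of the rRNAs MT-RNR2 was the gene that fell, in 3 of the 4 comparisons. In Jurkat day 8 MT-RNR2 stood at 3577 and 3762 CPM with sh-NC and at 3027 and 2847 CPM with sh-SH2D1A. In Jurkat day 10 it stood at 3659 and 4141 against 2967 and 3066 CPM. In 6T-CEM day 5 it stood at 8589 and 8994 against 6990 and 8243 CPM, and in 6T-CEM day 10 at 7932 and 7911 against 7357 and 6851 CPM. Both sh-SH2D1A libraries were lower in every case. The log2 changes with their standard errors were -0.32 ± 0.05, -0.37 ± 0.07, -0.20 ± 0.10 and -0.15 ± 0.03. They passed the threshold of an adjusted p under 0.05 in edgeR's quasi-likelihood test with Benjamini-Hochberg adjustment in Jurkat day 8 (adjusted p = 0.00859), Jurkat day 10 (0.0213) and 6T-CEM day 10 (0.0174), and not in 6T-CEM day 5 (0.355). Without the second sh-SH2D1A library of Jurkat day 8 the edgeR adjusted p was 0.119, and without the second sh-NC library of Jurkat day 10 it was 0.0880. With no filter on low counts none of the 3 passed (edgeR adjusted p = 0.055, 0.300 and 0.131), and 6T-CEM day 10 did not pass with all 16 libraries in the fit (0.352) or scaled to the mitochondrial total (0.229).

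MT-RNR1, transcribed on the same precursor just upstream, passed in none of them. It stood at 844 and 883 CPM with sh-NC and at 954 and 911 CPM with sh-SH2D1A in Jurkat day 8, with changes of 0.11 ± 0.05, 0.07 ± 0.07, -0.13 ± 0.10 and 0.04 ± 0.04 in the 4 comparisons (edgeR adjusted p from 0.193 to 0.691). The ratio of MT-RNR2 to MT-RNR1 counts, which no scaling between libraries touches, was 4.24 and 4.26 with sh-NC against 3.17 and 3.13 with sh-SH2D1A in Jurkat day 8, and 6.87 and 7.53 against 5.17 and 5.46 in Jurkat day 10. In 6T-CEM it was 5.12 and 5.13 against 4.71 and 5.04 at day 5, and 4.51 and 4.54 against 3.95 and 3.95 at day 10. It was lower in both sh-SH2D1A libraries in 4 of 4 combinations. The mean log2 difference was -0.284 (exact permutation p = 0.00154, the smallest possible, adjusted p = 0.00231).

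**Figure D3:**
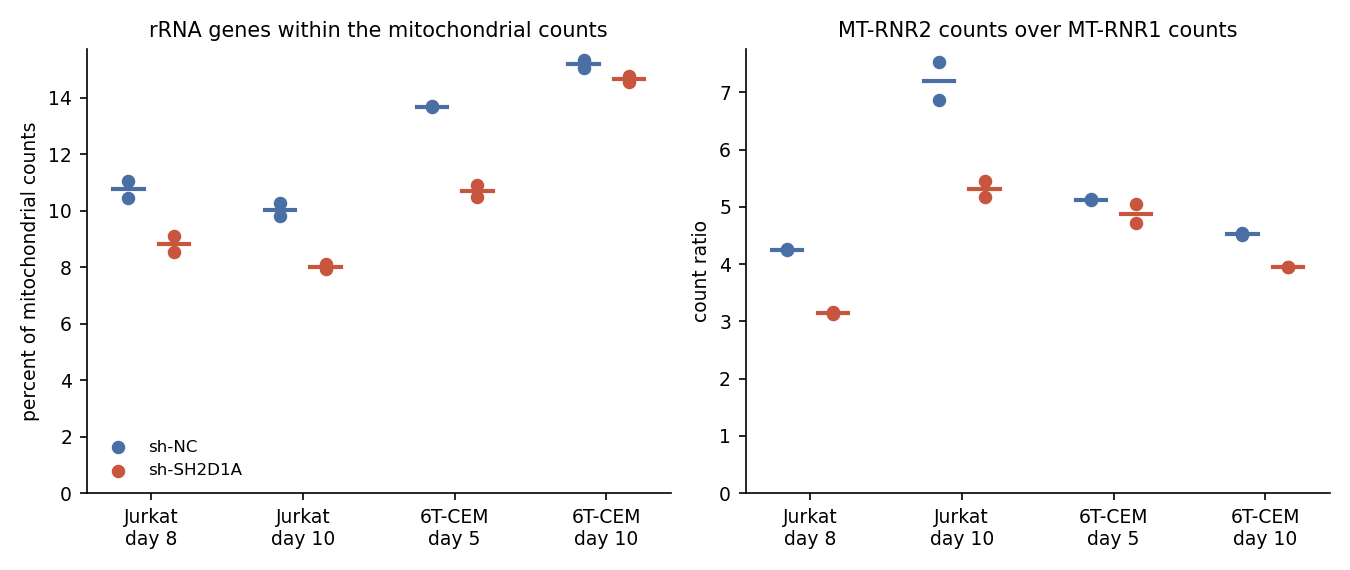
Left, the 2 rRNA genes as percent of mitochondrial counts; right, MT-RNR2 counts divided by MT-RNR1 counts. Points are single libraries and bars are means of 2. In both panels the sh-SH2D1A libraries lie below the sh-NC libraries of the same line and day, with the narrowest gap in the right panel at 6T-CEM day 5 (5.04 against 5.12).

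The mRNAs of the ATP synthase and of several complex I subunits were higher with sh-SH2D1A in Jurkat day 8. There 9 of the 37 mitochondrial genes passed the threshold, 5 higher and 4 lower, while 12.4% of the 19266 genes tested passed (5.23% higher, 7.13% lower). All 37 genes passed the filter on low counts in every comparison. The ATP synthase genes both rose: MT-ATP6 by 0.37 ± 0.06 (edgeR adjusted p = 0.00732) and MT-ATP8 by 0.42 ± 0.09 (edgeR adjusted p = 0.0254). MT-ATP6 stood at 3254 and 3588 CPM with sh-NC and at 4346 and 4468 CPM with sh-SH2D1A. MT-ATP8 stood at 551 and 660 against 759 and 863 CPM, so both genes of the overlapping pair were clear of the control libraries. Of the 7 complex I genes, which encode the proton-pumping membrane core, MT-ND1, MT-ND2 and MT-ND3 rose by 0.25 ± 0.07, 0.34 ± 0.06 and 0.30 ± 0.06 (edgeR adjusted p = 0.0487, 0.0156 and 0.0176). MT-ND2 stood at 1475 and 1682 against 1994 and 1998 CPM, with no overlap. None of the 3 complex IV genes passed, and MT-CO1 had the lowest value, -0.15 ± 0.05 (edgeR adjusted p = 0.0905). Over all members, 15 stood above both control libraries and 12 below both, against 27.8% and 29.6% of all genes tested. Without the second sh-SH2D1A library of Jurkat day 8 none of the 9 calls was kept, although the log2 values stayed close (MT-ATP6 0.346, edgeR adjusted p = 0.0771), and without the first 3 were kept. Scaled to the mitochondrial total only MT-ATP6 and MT-RNR2 were kept, and MT-ND1, MT-ND2, MT-ND3 and MT-ATP8 were not (edgeR adjusted p from 0.0501 to 0.180). With no filter on low counts only MT-ATP6 was kept.

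In Jurkat day 10 only MT-RNR2 passed among the 37, beside 3.78% of 19079 genes tested (1.26% higher, 2.52% lower). Without the second sh-NC library the single call was MT-ND2 in its place. The genes that had risen at day 8 had values on the same side: MT-ND2 0.29 ± 0.08, MT-ND1 0.21 ± 0.07, MT-ND3 0.20 ± 0.08, MT-ATP6 0.19 ± 0.07 and MT-ATP8 0.13 ± 0.07 (edgeR adjusted p from 0.0647 to 0.38). MT-ND2 stood at 1184 and 1318 CPM with sh-NC and at 1546 and 1524 CPM with sh-SH2D1A. Here 7 members were above both control libraries and 12 below both, against 25.0% and 23.8% of genes. The difference between the day 10 and day 8 changes passed for none of the 37 genes in edgeR (0.00454% of 22032 genes passed) or DESeq2, with 1481 of all genes at an unadjusted p under 0.05.

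In 6T-CEM the direction was not the same on both days. At day 5 MT-ATP8 rose by 0.78 ± 0.15 (edgeR adjusted p = 0.0365) and MT-ND3 by 0.58 ± 0.12 (edgeR adjusted p = 0.0447), and they were the only members among the 2.11% of 19482 genes that passed (0.606% higher, 1.51% lower). MT-ATP8 stood at 459 and 448 CPM with sh-NC and at 648 and 901 CPM with sh-SH2D1A. MT-ND3 stood at 211 and 199 against 285 and 329 CPM. Neither overlapped, and the 2 sh-SH2D1A libraries were far apart for MT-ATP8. MT-ND2 (0.46 ± 0.12), MT-ATP6 (0.44 ± 0.11), MT-CO3 (0.40 ± 0.09) and MT-CYB (0.35 ± 0.11) had values of like size without passing (edgeR adjusted p from 0.07 to 0.16). Here 14 members stood above both control libraries and 12 below both, against 23.7% and 24.8% of genes. Neither call was kept without either sh-NC library (edgeR adjusted p from 0.0655 to 0.47). Neither passed when scaled to the mitochondrial total (0.113 for MT-ND3 and 0.0563 for MT-ATP8 by edgeR), and MT-ND3 did not with no filter on low counts (0.0594). Without the first sh-SH2D1A library 15 members passed, 12 higher and 3 lower, and without the second 9, of which 4 were higher and 5 lower.

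At day 10 in 6T-CEM 4 members fell and none rose, beside 14.0% of 19610 genes tested (6.61% higher, 7.42% lower). They were MT-ND4L at -0.26 ± 0.03 (edgeR adjusted p = 0.001), MT-ND3 at -0.13 ± 0.03 (0.0303), MT-RNR2 and MT-TR, the tRNA for arginine, at -0.49 ± 0.12 (0.0342). MT-ND4L, a small complex I subunit, stood at 1082 and 1130 CPM with sh-NC and at 932 and 916 CPM with sh-SH2D1A. As many as 28 members stood below both control libraries and 1, MT-CYB, above both, against 28.8% and 28.0% of genes. Most of these differences were small, with a median of -0.16 over the 37 genes and -0.08 over the 13 mRNAs, beside 0.00 over all genes. MT-ND3 was not called without the second sh-NC library (edgeR adjusted p = 0.187) or the second sh-SH2D1A library (0.0874), and MT-TR was not called without any 1 of the 4 libraries. Without the first sh-SH2D1A library 9 members were lower, and the fit of all 16 libraries called none. Of the 4 calls 1, MT-ND4L, was kept with no filter on low counts and when scaled to the mitochondrial total.

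The change of MT-ND3 differed between the 2 days in 6T-CEM. With sh-SH2D1A it was higher at day 5 and lower at day 10, where it stood at 783 and 823 CPM with sh-NC and at 738 and 726 CPM. The day 10 change minus the day 5 change was -0.71 ± 0.11 (edgeR adjusted p = 0.0119), the only member among the 0.681% of 22032 genes that passed. This contrast was not planned and was chosen after seeing the data. MT-ATP8 had a difference of -0.84 ± 0.19 (edgeR adjusted p = 0.0649) and MT-ND2 of -0.56 ± 0.13 (0.0634). The 3 mRNAs under 500 bases, MT-ND3 among them, ranged from -0.84 to -0.47, with a median of -0.71. The 10 longer ones ranged from -0.56 to 0.14, with a median of -0.29. Nuclear genes had a median of -0.27 below 500 bases (29 genes) and of -0.05 at 500 to 1000 bases. The part of length in this difference was not tested, nor was that of the smaller fall of SH2D1A at day 10. Without any 1 of the 4 day 10 libraries, or without the second sh-NC library of day 5, the value for MT-ND3 ranged from -0.742 to -0.654 with edgeR adjusted p from 0.0512 to 0.0835. Without the first sh-SH2D1A library of day 5, 16 members passed, 15 of them with a lower change at day 10. Scaled to the mitochondrial total the value was -0.481 (edgeR adjusted p = 0.0863).

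**Figure D4:**
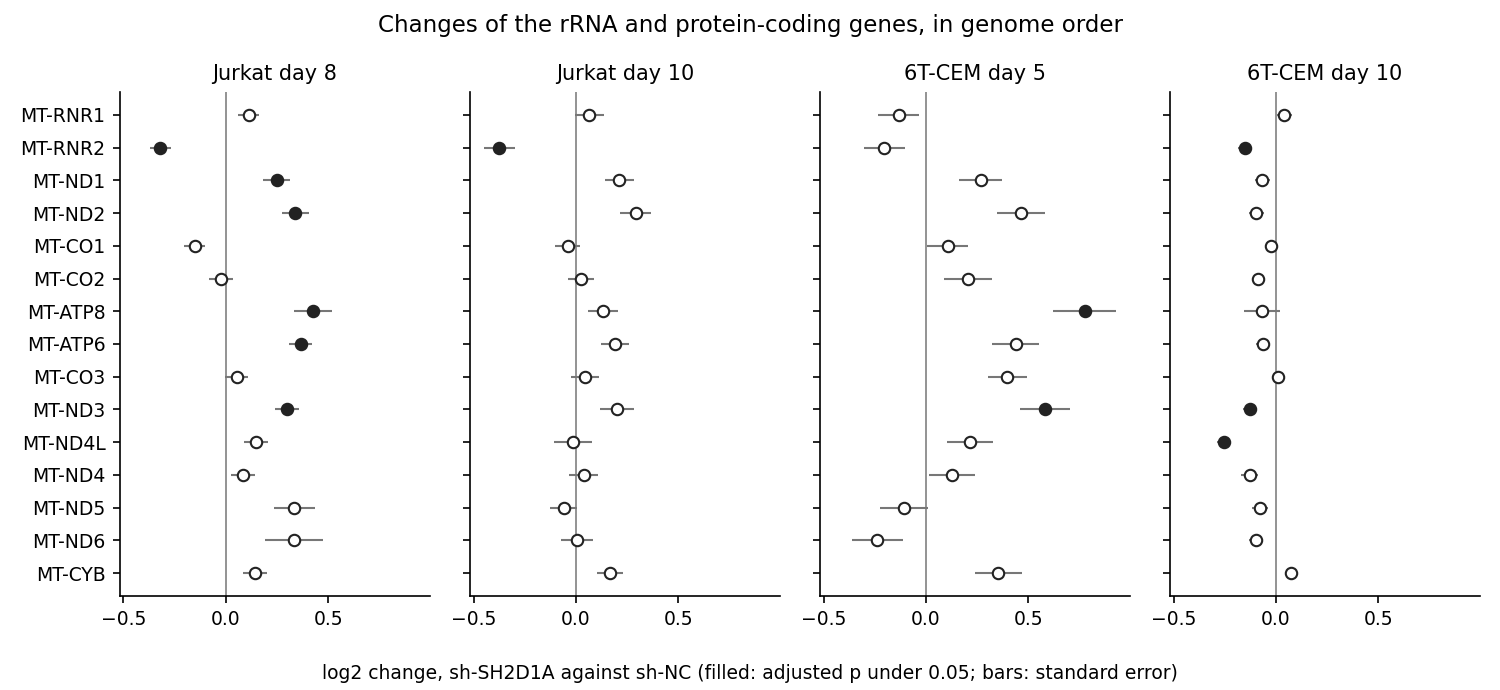
Log2 changes, sh-SH2D1A against sh-NC, of the 2 rRNA and 13 protein-coding genes in each line and day, in genome order. Filled points passed an adjusted p under 0.05 in edgeR and bars are standard errors. MT-RNR2 lies left of 0 in all 4 panels, and MT-ND2, MT-ATP8 and MT-ATP6 lie right of 0 in all panels but 6T-CEM day 10.

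Averaged over the 4 changes, 7 of the 13 mRNAs were higher and none lower, and 14 of all 37 genes passed, 7 in each direction, beside 22.9% of 22032 genes tested (10.7% higher, 12.2% lower). The mean log2 changes were 0.31 ± 0.07 for MT-ATP8, 0.25 ± 0.04 for MT-ND2, 0.24 ± 0.04 for MT-ND3, 0.23 ± 0.04 for MT-ATP6, 0.18 ± 0.04 for MT-CYB, 0.16 ± 0.04 for MT-ND1 and 0.13 ± 0.03 for MT-CO3 (edgeR adjusted p from 0.000636 to 0.0104). MT-RNR2 was lower, at -0.26 ± 0.04 (edgeR adjusted p = 0.000175), and MT-RNR1 was at 0.02 ± 0.03. MT-CO3 and MT-CYB had a positive value in all 4 comparisons and MT-RNR2 a negative one in all 4. Of the 6 mRNAs with an incomplete stop codon 5 were higher, all but MT-ND4 (0.03 ± 0.04), and of the 7 with a complete one 2 were higher, the overlapping MT-ATP8 and MT-ATP6. This split by stop codon was chosen after the values were seen and was not tested. The difference between the Jurkat and the 6T-CEM change passed for none of the 37 genes in edgeR (1.91% of genes passed, 1.18% higher and 0.726% lower), DESeq2 called 1, and 3081 of all genes had an unadjusted p under 0.05.

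Most of the tRNA genes that fell are neighbours on the map. Of the 22, none was higher in the mean of the 4 changes and 6 were lower: all 5 of the run between MT-ND2 and MT-CO1 and 1 of the other 17, MT-TP, the tRNA for proline. The run was singled out after its values were seen. By strand, 5 of the 8 minus-strand tRNA genes were lower, MT-TP among them, and 1 of the 14 plus-strand ones, MT-TW. The mean changes were -0.53 ± 0.14 for MT-TW, -0.30 ± 0.04 for MT-TC, -0.28 ± 0.04 for MT-TN, -0.25 ± 0.03 for MT-TY and -0.21 ± 0.05 for MT-TA (edgeR adjusted p from 5.83e-05 to 0.0156), and all 5 had a negative value in all 4 comparisons. MT-TY stood at 73.3 and 73.5 CPM with sh-NC and at 63.8 and 62.9 CPM with sh-SH2D1A in Jurkat day 8, and at 72.4 and 71.1 against 62.6 and 62.3 CPM in Jurkat day 10. In 6T-CEM it stood at 115 and 122 against 84.6 and 84.6 CPM at day 5 and at 79.2 and 84.7 against 75.1 and 78.3 CPM at day 10. No sh-SH2D1A library reached the controls of its line and day. Within single comparisons MT-TN, MT-TC and MT-TY passed in Jurkat day 8 (-0.26, -0.28 and -0.21, edgeR adjusted p from 0.0265 to 0.0493). None of these 3 calls was kept scaled to the mitochondrial total, with replicate number as a block, or with no filter on low counts. MT-TN and MT-TY were also not called with all 16 libraries in the fit. MT-TY was further not called with DESeq2, its size factors, scaling from the other genes or the stricter filter. MT-TW rests on 19 to 74 counts a library and was not called by DESeq2 or with no filter on low counts. Its widest fall was in 6T-CEM day 5, from 50 and 49 counts with sh-NC to 20 and 19 with sh-SH2D1A. In Jurkat day 8 its libraries overlapped (30 and 37 against 32 and 26 counts). MT-TP (-0.30 ± 0.10) was not called in 12 of the 16 fits that left out 1 library, nor with no filter.

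The strand setting of the counting is not given in the sources used here, so reads of the minus-strand tRNAs and of the precursor on the other strand cannot be told apart. This also holds for MT-ND6, whose changes (0.33 ± 0.14, 0.01 ± 0.08, -0.24 ± 0.12 and -0.10 ± 0.03) passed in no comparison of sh-SH2D1A with sh-NC. Bases shared by neighbours, as in MT-ATP8 and MT-ATP6 or MT-ND4L and MT-ND4, may have been counted for either gene.

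In the sh-NC libraries, scaled to all genes, 22 of the 37 genes were lower in Jurkat than in 6T-CEM and 4 were higher, beside 50.8% of 22032 genes tested (26.0% higher, 24.8% lower). Scaled to the mitochondrial total the balance turned, with 22 members higher in Jurkat and 6 lower. The rRNAs differed most: MT-RNR1 by -1.34 ± 0.04 and MT-RNR2 by -1.14 ± 0.05 (edgeR adjusted p = 1.07e-11 and 6.47e-10). Among the mRNAs 11 of 13 were lower, of which MT-CO1, MT-CO2, MT-CO3, MT-CYB, MT-ND4L and MT-ND6 changed sign when scaled to the mitochondrial total in place of all genes. That scaling moved the median of all genes by 0.70. The mRNAs that kept their sign were MT-ATP6 at -0.94 ± 0.06, MT-ND1 at -0.93 ± 0.05, MT-ND2 at -0.91 ± 0.06, MT-ND4 at -0.84 ± 0.06, and MT-ND5, which was at -0.01 (edgeR adjusted p = 0.829) under the mitochondrial scaling. The complex IV genes differed by -0.67 ± 0.04 for MT-CO3, -0.56 ± 0.06 for MT-CO2 and -0.39 ± 0.05 for MT-CO1 when scaled to all genes, and by 0.03, 0.13 and 0.30 when scaled to the mitochondrial total. MT-ND3 (-0.03 ± 0.06) and MT-ATP8 (-0.16 ± 0.10) did not pass, changed sign under that scaling too (0.66 and 0.54), and lay on different sides of Jurkat at the 2 days of 6T-CEM. Of the tRNAs 9 were lower and 4 higher, the latter being MT-TA (0.96 ± 0.07), MT-TS2, MT-TP and MT-TL2. Of these MT-TP also stood higher in Jurkat at day 10, the day both lines have (9.67 and 11.6 against 7.73 and 7.81 CPM). MT-TA, MT-TS2 and MT-TL2 were lower in both Jurkat libraries on that day (means of 32.9, 9.49 and 10.7 CPM against 37.0, 17.3 and 18.3), and stood above 6T-CEM only at its day 5. Of the mRNAs called lower in Jurkat, MT-CO1 did not separate the lines at day 10. Its unscaled sh-NC counts on that day were 344715 and 365053 in Jurkat and 357215 and 383489 in 6T-CEM. The other mRNAs called lower were lower in both Jurkat libraries on that day.

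Between day 5 and day 10 in the sh-NC libraries of 6T-CEM most of the short genes rose, and several of the longer mRNAs fell when scaled to all genes. Altogether 17 of the 37 genes rose and 6 fell, beside 39.8% of 22032 genes tested (19.7% higher, 20.1% lower). Scaled to the mitochondrial total 23 rose and 2 fell. The 3 mRNAs under 500 bases all rose: MT-ND3 by 1.97 ± 0.08, MT-ATP8 by 1.27 ± 0.14 and MT-ND4L by 0.44 ± 0.09 (edgeR adjusted p = 2.4e-09, 7.61e-06 and 0.000921). MT-ND3 went from 211 and 199 CPM at day 5 to 783 and 823 CPM at day 10, the widest change among the mRNAs. MT-ATP8 went from 459 and 448 to 1080 and 1115 CPM. The 10 longer mRNAs ranged from -0.65 to -0.04, and 4 of them fell: MT-CO1 by 0.65 ± 0.07, MT-ND4 by 0.61 ± 0.09, and, with values of 0.01 and 0.05 when scaled to the mitochondrial total, MT-ND2 by 0.26 ± 0.09 and MT-CYB by 0.22 ± 0.08. MT-CO1 went from 18611 and 19300 to 12065 and 12081 CPM. The rRNAs did not pass (MT-RNR1 0.03 ± 0.06, MT-RNR2 -0.15 ± 0.08). MT-CYB was not called in 10 and MT-ND2 in 6 of the 16 fits that left out 1 library, and MT-CYB also missed the threshold with no filter (0.0523), the stricter filter (0.0664) and scaling from the other genes (0.0563 by edgeR). The mitochondrial scaling moved the median of all genes by 0.27, and MT-CO3, MT-ND1 and MT-ATP6 also changed sign. MT-CO2 and MT-ND5 likewise took a larger part of the mitochondrial counts in both day 10 libraries. MT-CO2 went from 9.30 and 9.26% to 9.62 and 9.79%, and MT-ND5 from 5.11 and 5.09% to 5.17 and 5.51%.

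The tRNA genes, all far shorter, rose in 14 of 22 cases and fell in 2, MT-TC (-0.37 ± 0.08) and MT-TY (-0.53 ± 0.06). The run printed above rose by 2.16 ± 0.18 for MT-TH, 2.53 ± 0.19 for MT-TS2 and 2.11 ± 0.17 for MT-TL2, and MT-TA rose by 2.34 ± 0.11. MT-TS2 went from 3.28 and 2.69 CPM to 16.2 and 18.4 CPM. Within the overlapping pairs the shorter gene rose while its partner on the same mRNA did not rise (MT-ATP6 -0.04 ± 0.09, MT-ND4 -0.61 ± 0.09). Nuclear protein-coding genes differed by length between the same libraries: those with a longest transcript under 500 bases had a median of 0.47 and were higher in 58.6% of 29 cases, those of 500 to 1000 bases had a median of 0.75 and were higher in 80.4% of 546 cases, those of 1000 to 2000 bases had a median of 0.27, and longer ones of -0.08. The part of transcript length in the mitochondrial changes was not tested.

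**Figure D5:**
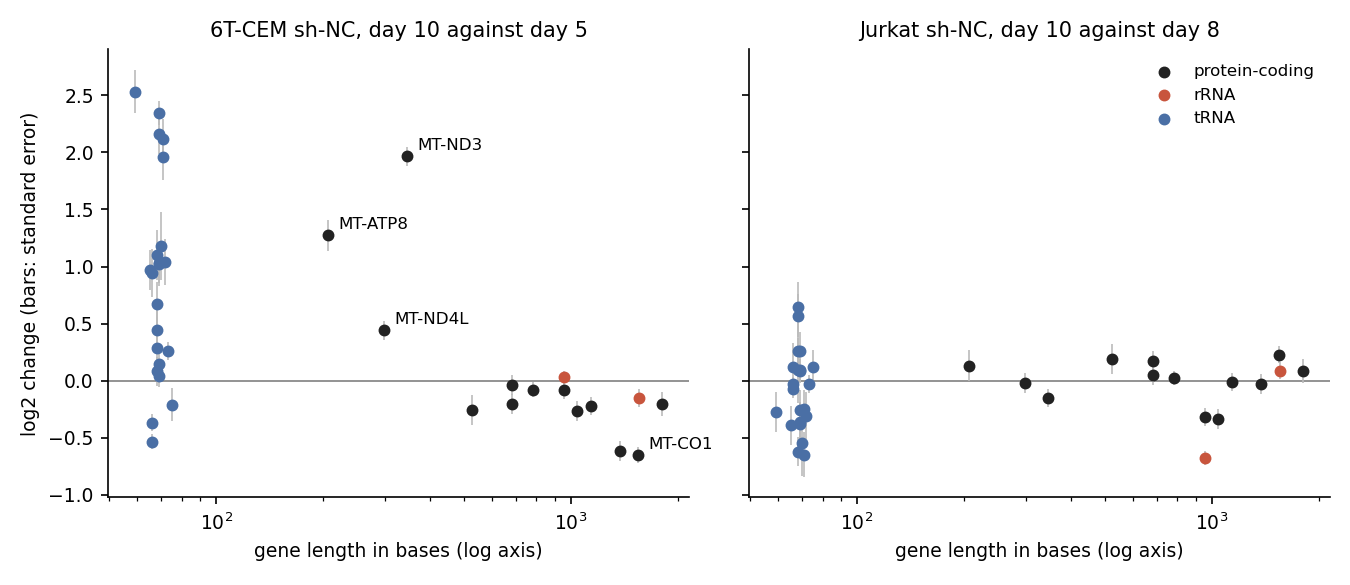
Log2 change between days in the sh-NC libraries against gene length (log axis) for the 37 genes, with standard errors as bars. In 6T-CEM the tRNA genes and the 3 short mRNAs reach 2.53 and the mRNAs of over 1000 bases lie below 0. Of the latter, MT-ND2, MT-CYB and MT-ND5 do not lie below 0 when scaled to the mitochondrial total. In Jurkat the values lie between -0.67 and 0.65 and show no such rise of the short genes.

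In Jurkat the sh-NC libraries changed little between day 8 and day 10. None of the 37 genes rose and 3 fell, beside 3.42% of 22032 genes tested (1.68% higher, 1.74% lower). MT-RNR1 fell most, by 0.67 ± 0.06 (edgeR adjusted p = 5.73e-05), from 844 and 883 CPM to 532 and 550 CPM, while MT-RNR2 was at 0.09 ± 0.08. MT-ND1 (-0.32 ± 0.08) and MT-TG, the tRNA for glycine (-0.62 ± 0.13), also fell, the former not called in 13 of the 16 fits that left out 1 library. The calls numbered 1 without the second sh-NC library of day 8 or either sh-NC library of day 10, and 6 and 5 without the first and second sh-SH2D1A library of 6T-CEM day 5, which enter the joint estimate of the spread. The 3 short mRNAs ranged from -0.15 to 0.13, and nuclear genes of 500 to 1000 bases had a median of -0.11.

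Nuclear chromosomes carry copies of mitochondrial DNA, and a few are near enough to identical that reads could be assigned to either place. MTATP6P1 on chromosome 1 (chr1:633696-634376, GRCh38) differs from MT-ATP6 at 10 of 681 bases, and it was counted at 14.9 to 17.2% of the MT-ATP6 level. MTND2P28 is 98.4% identical to MT-ND2 and stood at 8.41 to 13.8% of its level, and MTCO1P12, 98.7% identical to MT-CO1, at 1.23 to 1.52%. MTND4P12 on chromosome 5, at 95.7% identity, stood at 0.024 to 0.108% of MT-ND4. With sh-SH2D1A MTATP6P1 had a mean change of 0.21 ± 0.05 and MTND2P28 of 0.33 ± 0.04 (edgeR adjusted p = 0.005 and 3.98e-05), beside 0.23 for MT-ATP6 and 0.25 for MT-ND2. Between day 5 and day 10 in 6T-CEM sh-NC, MTND2P28 rose by 0.26 ± 0.08 (edgeR adjusted p = 0.0184), while MT-ND2 was called lower. In that comparison MTATP6P1 (-0.07 ± 0.09) and MTCO1P12 (-0.74 ± 0.12) lay on the side of their parents, and MTND4P12 (0.79 ± 0.41) did not. The levels of these mitochondrial genes are uncertain to that extent, and the assignment of their reads was not tested.

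The nuclear genes that copy, transcribe and process mitochondrial DNA and RNA passed the threshold in single members. In the mean of the 4 changes, in which 10.7% of all genes were higher and 12.2% lower, 4 of 17 genes of mitochondrial transcription and replication were higher and 1 lower, with a list median of 0.07 beside 0.01 over all genes. The lower gene was POLG, the catalytic subunit of the mitochondrial DNA polymerase, at -0.58 ± 0.05 (edgeR adjusted p = 7.45e-07). It passed in all 4 comparisons, with -0.62 and -0.41 in Jurkat and -1.06 and -0.22 in 6T-CEM. In Jurkat day 8 it stood at 304 and 305 CPM with sh-NC and at 195 and 200 CPM with sh-SH2D1A. The higher genes were TWNK, the replicative helicase (0.28 ± 0.05), TFB2M, a transcription initiation factor (0.24 ± 0.06), SSBP1, which binds single-stranded mitochondrial DNA (0.22 ± 0.07), and the nuclease MGME1 (0.21 ± 0.04).

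Of 30 genes of mitochondrial RNA processing and stability 3 were higher and none lower (list median 0.05), beside 10.7% higher and 12.2% lower over all genes. HSD17B10 and TRMT10C are both subunits of mitochondrial RNase P, which cuts the 5′ ends of the tRNAs, and they were higher by 0.64 ± 0.06 and 0.27 ± 0.06 (edgeR adjusted p = 3.01e-06 and 0.004). HSD17B10 stood at 36.2 and 42.0 CPM with sh-NC and at 58.7 and 61.5 CPM with sh-SH2D1A in Jurkat day 8, and at 15.3 and 13.4 against 28.7 and 27.7 CPM in 6T-CEM day 5. SLIRP, which with LRPPRC stabilises mitochondrial mRNAs, was higher by 0.25 ± 0.07 (edgeR adjusted p = 0.0179).

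Of 78 mitochondrial ribosomal protein genes 12 were higher and 5 lower (list median 0.04), beside 10.7% higher and 12.2% lower over all genes. Among them were MRPL24 at 0.41 ± 0.06, MRPL42 at 0.31 ± 0.05, MRPS5 at -0.26 ± 0.03 and MRPL16 at -0.24 ± 0.04. Of 77 nuclear subunit genes of the respiratory chain and the ATP synthase 5 were higher and 7 lower, beside the same shares of all genes. The list median was 0.04, beside 0.01 over all genes, so the list as a whole was not lower. The 7 lower subunits were led by NDUFA1 of complex I at -1.09 ± 0.08, SDHD of complex II at -0.68 ± 0.05 and ATP5F1A, the alpha subunit of the ATP synthase, at -0.44 ± 0.04 (edgeR adjusted p from 1.38e-07 to 9.58e-07). NDUFA1 and SDHD passed in all 4 comparisons. NDUFA1 stood at 25.5 and 26.0 CPM with sh-NC and at 9.86 and 12 CPM with sh-SH2D1A in 6T-CEM day 10. Among 7 tested regulators of mitochondrial biogenesis MYC was higher (0.32 ± 0.03), with 0.47 and 0.74 in Jurkat and 0.16 and -0.07, neither past the threshold, in 6T-CEM. Between day 5 and day 10 in 6T-CEM sh-NC, 56 of the 77 nuclear subunit genes rose and 4 fell, and 49 of the 78 ribosomal protein genes rose and 3 fell, beside 19.7% of all genes that rose and 20.1% that fell and the length medians given above.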

How the data were processed

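The authors deposited whole-number counts per Ensembl gene, not normalised, as 4 tables with 4 libraries each. Alignment with HISAT2 2.2.0, StringTie and hg38 are named in the submitters' processing notes, and the labels' protocols give TRIzol and TruSeq. Which annotation, strand setting, filter and counting step were used is not given in the sources used here. Symbols came from a table of gene names (56105 of the 64252 identifiers matched) and positions, strands and transcript sequences from GENCODE 29 (GRCh38, 56634 matched).

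Libraries were grouped by the labels. A model was fitted to each table with edgeR 4.0.16 under R 4.3.3, after filterByExpr (minimum count 10) and TMM scaling, using glmQLFit and a two-sided glmQLFTest. Adjustment was by Benjamini-Hochberg over every tested gene, and a gene with an adjusted p under 0.05 was called. The mean of the 4 changes and the contrasts of lines and days came from a joint model of the 16 libraries, which had 8 group means. The standard error is the absolute log2 change over the square root of F. Printed CPM are TMM-scaled over all 16 libraries, while log2 changes within a line and day come from that table's own fit. Shares are percents of all gene counts, tested by exact permutation of libraries.

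The members and gene lists were chosen with earlier results of these data known. All members are accounted for: rRNA and protein-coding genes singly, tRNAs by counts and some by name, and from each list up to 6 genes with the lowest p in the mean of the 4 changes among those past the threshold. Of 390 nuclear copies of mitochondrial genes the 4 with the highest mean CPM are described. The 19 copies tested held 2 that were higher, and of the 8 biogenesis regulators 7 were tested. The alternatives were other normalisations, filters, a replicate block, DESeq2 1.42.0, all libraries in 1 fit, and leaving out each library. The fits were tested on simulated data.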

Additional observations from a re-analysis of the deposited data

Results flagged for a closer look

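The change of MT-ND3 with sh-SH2D1A in 6T-CEM is set apart because it differed between the 2 days by a direct test of the difference. The day 10 change minus the day 5 change was -0.71 ± 0.11 (edgeR quasi-likelihood test, adjusted p = 0.0119), with both sh-SH2D1A libraries above the controls at day 5 and both below at day 10. That test was not planned and was chosen after seeing the data. Scaled to the mitochondrial total the value was -0.481 and did not pass (edgeR adjusted p = 0.0863).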

How the results depend on the processing

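The alternatives covered normalisation, filters, DESeq2, a replicate block, 1 fit of all libraries, and leaving out each library. The splits with tRNA genes only or without tRNA genes, and the day difference of the change, were chosen after seeing the data. The rRNA part of the mitochondrial counts and the ratio of MT-RNR2 to MT-RNR1 were not planned either. The cause of a change was not tested. The smallest p an exact test of 2 against 2 libraries can give is 0.333. With sh-SH2D1A minus sh-NC, the share over the 4 combinations was 0.390 percentage points for protein-coding genes only (permutation p = 0.0448). For rRNA genes only the share turned negative, at -0.0601 in Jurkat day 8, -0.0747 in Jurkat day 10, -0.114 in 6T-CEM day 5, -0.0780 over the 4 combinations, and -0.0212 from day 8 to day 10 in Jurkat. For tRNA genes only it was -0.00329, -0.00389, -0.00375, -0.00408 and -0.00150 in the same order, and it was 0.00906 from day 5 to day 10 in 6T-CEM. Leaving out 1 library gave 0.0128 to 0.431 in Jurkat day 8, 0.00545 to 0.311 in Jurkat day 10, 0.450 to 1.65 in 6T-CEM day 5, -0.383 to -0.0146 in 6T-CEM day 10 and 0.158 to 0.459 over the 4 combinations. Between lines it gave -3.14 to -2.63, between days -1.94 to -1.34 in 6T-CEM and 0.0109 to 0.220 in Jurkat.

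The count of mitochondrial genes called in Jurkat day 8 was 2 relative to the mitochondrial counts, 1 with no filter and 5 with all 16 libraries in the fit. In Jurkat day 10 it was 0 with no filter and 2 with DESeq2. In 6T-CEM day 5 it was 5 relative to the mitochondrial counts, 1 with no filter, 7 with DESeq2 and 14 with all 16 libraries. In 6T-CEM day 10 it was 1 relative to the mitochondrial counts, 1 with no filter, 9 with DESeq2 and 0 with all 16 libraries. Without the tRNA genes the mean of the 4 changes had 8 calls, Jurkat minus 6T-CEM 13 and day 10 minus day 5 in 6T-CEM 7. DESeq2 called 1 gene for the Jurkat change minus the 6T-CEM change and 5 for day 10 minus day 8 in Jurkat. The day difference of the change in 6T-CEM had 0 calls relative to the mitochondrial counts, 5 with no filter, 2 with the stricter filter and 10 with DESeq2. Leaving out 1 library gave 0 to 13 calls in Jurkat day 8, 1 in every fit of Jurkat day 10, 0 to 15 in 6T-CEM day 5 and 2 to 9 in 6T-CEM day 10. It gave 13 to 15 for the mean of the 4, 0 to 2 for the Jurkat change minus the 6T-CEM change and 25 to 27 between lines. Between days it gave 19 to 25 in 6T-CEM and 1 to 6 in Jurkat, and for the day difference of the change 0 to 16 in 6T-CEM and 0 in Jurkat.

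Relative to the mitochondrial counts, the log2 difference of Jurkat minus 6T-CEM turned to 0.026 for MT-CO3, 0.34 for MT-ND4L, 0.19 for MT-CYB, 0.30 for MT-CO1, 0.06 for MT-ND6, 0.66 for MT-ND3, 0.13 for MT-CO2 and 0.54 for MT-ATP8. Likewise day 10 minus day 5 in 6T-CEM turned to 0.20 for MT-CO3, 0.19 for MT-ND1, 0.051 for MT-CYB, 0.007 for MT-ND2 and 0.24 for MT-ATP6. MT-CO2 and MT-ND5 also rose as a part of the mitochondrial counts. The correlations of same-numbered deviations were 0.0159, 0.0714, 0.0690 and 0.0165. The labels do not say whether same-numbered libraries were handled together, and low correlations cannot decide it. With the replicate block the calls were 7 in Jurkat day 8, 3 in Jurkat day 10, 9 in 6T-CEM day 5 and 4 in 6T-CEM day 10. Without it they were 9, 1, 2 and 4 in the same order.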
